A study of Sus scrofa with 9 samples.

Results

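The 46 genes described here encode the enzymes of glycolysis, the transporters that carry glucose and lactate across the plasma membrane, the kinases that steer glycolytic and pyruvate flux, a set of glycogen genes, the hypoxia-inducible factors (HIF) with their oxygen sensors, and further genes known as HIF targets. They were taken by gene symbol from a list that was drawn up with earlier results of these data known, and all 46 were found among the 19535 gene rows of the count table. Porcine valvular interstitial cells (PVICs), fibroblast-like cells of the aortic valve leaflet that keep up its matrix, were grown in 3 groups with 3 RNA-sequencing libraries each. Calcification was modelled with an osteogenic medium (OIM), and basic fibroblast growth factor (bFGF) was tested as a treatment against it.

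Control cells were kept in DMEM, a standard culture medium, with serum. OIM cells received medium with ascorbic acid at 50 µg/mL, sodium dihydrogen phosphate at 2 mmol/L and insulin, and bFGF cells received the same OIM together with 50 ng/mL bFGF, so OIM is shared by both treated groups and no library holds bFGF without OIM. The labels give 3 days of treatment for OIM and bFGF, whereas the study's methods give a shorter time before sequencing. All cells came from wild type pigs aged 4 to 5 months and were primary cells expanded for a few passages on plastic. Neither source says whether the 3 libraries of a group came from separate animals or cultures, so the p-values measure the spread between these samples, which may be technical.

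Glycolysis splits glucose into pyruvate, which is either reduced to lactate by lactate dehydrogenase or carried into the mitochondria, where pyruvate dehydrogenase turns it into acetyl-CoA. HIF is a transcription factor made of an oxygen-regulated alpha subunit, HIF1A or EPAS1, and a stable partner. With oxygen present, the prolyl hydroxylases EGLN1 and EGLN3 mark the alpha subunit for capture by VHL and degradation, and without it HIF binds short ACGTG or GCGTG cores near many glycolytic genes and raises their transcription. Growth factors and their kinases can also act on these genes in well-oxygenated cells. Oxygen, glucose, lactate and HIF protein were not part of the count table, so only RNA levels are described.

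The gene counts of a library summed to 57075793 to 64723837 in control, 57682710 to 67371523 in OIM and 46773376 to 48270827 in bFGF. The 46 genes took 1.75 to 1.79% of the gene counts in control, 1.58 to 1.65% in OIM and 1.07 to 1.09% in bFGF, and these ranges did not overlap. Markers of mesenchymal cells (VIM, COL1A1, PDGFRA, DCN and the rest of the list) were above 1 on the counts-per-million scale (CPM) in every library for all 10 genes, and their summed level was 37600 to 37960 CPM in bFGF against 61460 to 64370 in OIM, with 4 genes called lower and 2 higher. The 8 endothelial markers summed to 36.3 to 38.8 CPM in bFGF against 20.9 to 23.2 in OIM, the 6 immune markers to 8.78 to 9.34 against 15.5 to 16.5, and the 5 smooth muscle markers, contractile genes that cultured valve cells also express, to 120.9 to 131.4 against 630.6 to 933.7. In control the smooth muscle markers summed to 561.4 to 570.9 CPM, and 2 of the 5 were called higher in OIM against control. Of 5 cardiomyocyte markers, 4 were in the count table and summed to 0.384 to 0.789 CPM in bFGF against 0.568 to 0.941 in OIM. Of these, TNNT2 and NPPA were at 0 in all libraries. Of the OIM libraries, replicate 2 stood apart across all genes (mean chi-square per gene of 18.4 against either of the others and 5.78 between those), so the calls among the 46 genes were also counted without it. The part of these shifts in the results was not tested, and in bulk RNA fewer cells of a type and less RNA per cell cannot be told apart.

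The 250 bases before the annotated start of 7 of the genes are shown because they carry the HIF core motif in different numbers next to large changes in RNA. ANKRD37, NDUFA4L2, BNIP3 and PDK1 are among the genes with the largest falls in bFGF, PGK1 and ENO1 are central glycolytic enzymes, and EGLN3 fell by as much as PDK1 with no motif in this window. Each sequence reads 5′ to 3′ on the strand of the gene in Sscrofa11.1 (RefSeq), with ACGTG or GCGTG on either strand in capitals. The windows lie at chr15:46445539-46445788 on the plus strand for ANKRD37, chr5:22548419-22548668 on the minus strand for NDUFA4L2, chr14:140371952-140372201 on the minus strand for BNIP3, chr15:78608144-78608393 on the plus strand for PDK1, chrX:62187222-62187471 on the plus strand for PGK1, chr6:69401665-69401914 on the minus strand for ENO1 and chr7:65805263-65805512 on the plus strand for EGLN3.

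ANKRD37: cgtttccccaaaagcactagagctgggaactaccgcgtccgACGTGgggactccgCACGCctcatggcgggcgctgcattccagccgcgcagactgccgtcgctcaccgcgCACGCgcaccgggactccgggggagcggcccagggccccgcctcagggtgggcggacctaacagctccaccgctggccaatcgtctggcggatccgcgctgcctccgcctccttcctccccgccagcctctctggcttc
NDUFA4L2: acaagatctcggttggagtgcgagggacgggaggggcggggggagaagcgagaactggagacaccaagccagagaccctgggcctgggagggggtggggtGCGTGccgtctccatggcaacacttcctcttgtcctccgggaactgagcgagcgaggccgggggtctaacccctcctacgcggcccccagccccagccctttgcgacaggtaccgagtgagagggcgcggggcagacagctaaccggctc
BNIP3: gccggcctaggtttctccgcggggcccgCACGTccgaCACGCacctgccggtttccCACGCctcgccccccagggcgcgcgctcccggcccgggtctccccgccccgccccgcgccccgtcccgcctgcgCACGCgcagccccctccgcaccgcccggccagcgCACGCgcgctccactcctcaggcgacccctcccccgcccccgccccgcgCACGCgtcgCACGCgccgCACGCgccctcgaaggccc
PDK1: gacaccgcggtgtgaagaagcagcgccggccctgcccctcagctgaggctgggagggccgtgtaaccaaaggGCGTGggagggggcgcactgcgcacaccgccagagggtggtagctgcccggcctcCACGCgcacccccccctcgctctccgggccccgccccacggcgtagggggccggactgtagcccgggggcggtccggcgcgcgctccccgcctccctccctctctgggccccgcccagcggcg
PGK1: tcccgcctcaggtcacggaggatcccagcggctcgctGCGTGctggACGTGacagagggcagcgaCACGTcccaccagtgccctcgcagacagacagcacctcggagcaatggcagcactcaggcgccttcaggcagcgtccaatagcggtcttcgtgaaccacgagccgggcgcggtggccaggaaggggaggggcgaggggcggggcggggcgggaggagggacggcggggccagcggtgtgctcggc
ENO1: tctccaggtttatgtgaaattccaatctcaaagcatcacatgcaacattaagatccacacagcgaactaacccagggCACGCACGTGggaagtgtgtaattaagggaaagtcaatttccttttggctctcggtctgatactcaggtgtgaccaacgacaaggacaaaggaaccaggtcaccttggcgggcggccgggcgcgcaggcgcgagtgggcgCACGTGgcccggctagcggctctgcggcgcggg
EGLN3: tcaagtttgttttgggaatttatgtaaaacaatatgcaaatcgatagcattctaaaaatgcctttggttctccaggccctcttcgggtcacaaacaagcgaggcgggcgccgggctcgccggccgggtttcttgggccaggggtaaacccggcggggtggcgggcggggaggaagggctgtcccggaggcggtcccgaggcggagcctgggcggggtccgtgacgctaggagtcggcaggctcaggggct

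The windows shown are all from genes that fell in bFGF against OIM. In the same 250 bases, PKM held 5 matches and was not called, LDHB held 2 and rose, and SLC16A3 held 0 and fell. BNIP3 held 8 matches in this window, ENO1 held 5, ANKRD37 and PGK1 held 3 each, PDK1 held 2 and NDUFA4L2 held 1, counting both strands. ENO1 has ACGTG on both strands at the same place because CACGTG, the E-box bound by other transcription factors, reads the same on each strand. With the first 50 bases of the gene included, SLC16A3 held 1 match, and 29 of the 46 genes (63%) held at least 1. Of the 19530 promoters of protein-coding genes 49.6% did so, and ACGTG alone was found in 43.5% of the 46 against 22.3%. The windows of the 46 genes were also richer in G and C, with a median of 63.7% against 58.7% over all promoters. Each window was placed at the outermost annotated start of the gene, which may not be the start used in these cells. A match is a description of the letters in this window and not a bound site.

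In bFGF against OIM, most of the glycolytic and hypoxia-inducible genes fell. A gene was called where edgeR's quasi-likelihood test gave a Benjamini-Hochberg adjusted p of at most 0.05 over all 13662 genes tested and the log2 fold change was at least 0.5 in size. All 46 genes were tested, 36 fell (78.3%), LDHB alone rose, and 9 were not called, while 18.4% of all genes tested were called lower and 17.7% higher. The median log2 fold change of the 46 genes was -1.23, a 2.35-fold lower level, against -0.003 over all genes. The 3 libraries of bFGF lay entirely below those of OIM for 41 of the genes and entirely above for 2, and groups without overlap were found for 72.1% of all genes tested. The calls among the 46 genes stayed at 36 lower and 1 higher without OIM replicate 2, and also with all libraries thinned to the depth of the smallest.

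**Figure D1:**
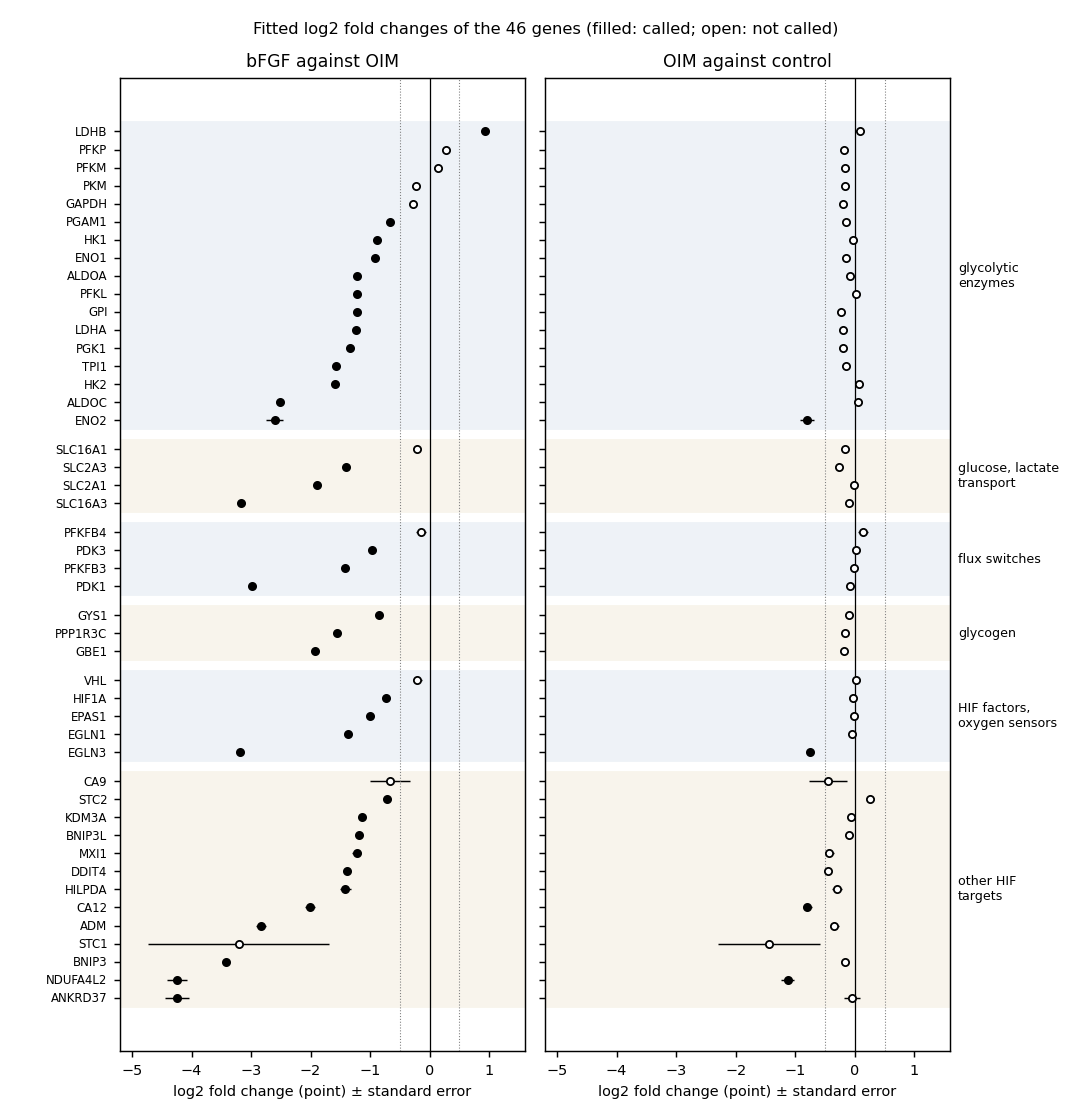
Fitted log2 fold changes (points) with standard errors (bars) of the 46 genes, grouped by role, in bFGF against OIM on the left and OIM against control on the right, with dotted lines at a log2 fold change of 0.5 in either direction. Filled points are called genes, which number 37 on the left and 4 on the right, and the left-hand values run down to -4.25 for ANKRD37.

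Glucose enters cells through the facilitative carriers SLC2A1 (GLUT1) and SLC2A3 (GLUT3), and both fell. SLC2A1 stood at 258, 262 and 252 CPM in the control libraries, 262, 249.6 and 252 CPM in OIM and 65.4, 71.8 and 68.7 CPM in bFGF. Its control and OIM libraries overlapped, and each bFGF library was far below both. The fall was 3.71-fold in bFGF against OIM (log2 fold change -1.89, SE 0.041, adjusted p = 2.37e-18). SLC2A3 fell 2.66-fold (log2 fold change -1.41), from 289 to 322 CPM in OIM to 110.4 to 116 CPM in bFGF.

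The lactate carriers differed from each other. SLC16A3 (MCT4), the low-affinity exporter typical of glycolytic cells, stood at 199.7, 226 and 205 CPM in control, 206.5, 196 and 191 CPM in OIM and 21.2, 21.8 and 23.1 CPM in bFGF. This was an 8.96-fold fall from OIM (log2 fold change -3.16, SE 0.054, adjusted p = 9.22e-20). SLC16A1 (MCT1), the high-affinity carrier for uptake and export, stood at 137, 139 and 139.7 CPM in OIM and 122, 119 and 120.1 CPM in bFGF. Its log2 fold change of -0.21 did not reach the fold limit, although the groups did not overlap. Per length of merged exons (RPKM), SLC16A1 was at 0.706 to 0.777 times the level of SLC16A3 in the OIM libraries and at 5.51 to 6.11 times in bFGF, while control gave 0.72 to 0.832.

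Of the 17 glycolytic enzymes, 12 fell, 1 rose and 4 were not called in bFGF against OIM, and the median change was -1.22 on the log2 scale. The hexokinases trap glucose in the cell as its phosphate. HK2, the inducible form, stood at 114, 116 and 113 CPM in control, 115.5, 126 and 118 CPM in OIM and 39.0, 37.0 and 43.6 CPM in bFGF, a 3.01-fold fall (log2 fold change -1.59, SE 0.053, adjusted p = 1.09e-15). HK1, the constitutive form, fell 1.84-fold, and the RPKM ratio of HK2 to HK1 went from 0.245 to 0.272 in OIM to 0.148 to 0.174 in bFGF. GPI, which isomerises the product, fell 2.34-fold.

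Phosphofructokinase, the committing step, has 3 subunit genes, and they did not move together. PFKL fell 2.33-fold, from 174 to 185 CPM in OIM to 77.1 to 78.2 CPM in bFGF. PFKM and PFKP were not called, with log2 fold changes of 0.14 (SE 0.068) and 0.27 (SE 0.045). By RPKM, PFKL made up 50.2 to 51.2% of the 3 subunits in OIM and 26.7 to 27.4% in bFGF, whereas PFKP went from 40.9 to 42.5% to 61.9 to 63.1%. PFKM was the smallest of the 3 in every library, at 7.36 to 11.2%. Reads from PFKM may include those of SENP1, which overlaps it on the other strand, since the strand setting of the counting was not given in the sources used here. The same holds for GAPDH with IFFO1, SLC2A1 with ZNF691 and SLC16A1 with LRIG2, and none of these 4 overlapping genes was called. The annotation also places uncharacterised loci on the same strand across GPI and GBE1. On the other strand such loci lie across PFKP, ALDOA, GAPDH, ENO1, PDK1, GYS1, HIF1A, EPAS1 and CA12. Their reads were not separated here.

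The enzymes that follow fell by different amounts. ALDOA, the aldolase of muscle and most cells, fell 2.32-fold and ALDOC, the brain isozyme, fell 5.74-fold, so the RPKM ratio of ALDOA to ALDOC went from 5.34 to 5.74 in OIM to 12.2 to 15.1 in bFGF. TPI1, which interconverts the triose phosphates, fell 2.97-fold. PGK1, the first enzyme of the pathway to make ATP, stood at 709, 702 and 692 CPM in control, 595, 600.4 and 633 CPM in OIM and 239, 238.5 and 245 CPM in bFGF. Each bFGF library was below each OIM library, which in turn lay below control, and the fall from OIM was 2.53-fold (log2 fold change -1.34, SE 0.034, adjusted p = 2.61e-17). PGAM1, phosphoglycerate mutase, fell 1.59-fold, and a near-identical copy elsewhere in the genome makes its reads uncertain.

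The enolases also differed in size. ENO1, the ubiquitous form, fell 1.90-fold, from 1826 to 1886 CPM in OIM to 967 to 1003 CPM in bFGF. ENO2, the neuronal form, stood at 28.5, 31.1 and 29.1 CPM in control, 17.5, 17.7 and 15.8 CPM in OIM and 3.92, 2.38 and 2.04 CPM in bFGF. The 3 groups were stepwise lower without overlap, and the fall in bFGF against OIM was 6.09-fold (log2 fold change -2.61, SE 0.144, adjusted p = 2.64e-12). The RPKM ratio of ENO1 to ENO2 was 120 to 131 in OIM and 281 to 554 in bFGF.

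GAPDH and PKM were not called. GAPDH, which oxidises the triose phosphate and often serves as a reference gene, stood at 1898, 2011 and 1881 CPM in OIM and 1586, 1569 and 1593 CPM in bFGF. PKM, pyruvate kinase, lay between 2585 and 2700 CPM in OIM and between 2175 and 2276 CPM in bFGF. Neither pair of groups overlapped, but the log2 fold changes of -0.29 and -0.24 were below the fold limit (adjusted p = 4.15e-07 and 4.77e-06). The table does not separate the splice forms of PKM.

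Lactate dehydrogenase is a tetramer of LDHA, which favours making lactate, and LDHB, which favours using it. LDHA stood at 1485, 1422 and 1457 CPM in control, 1229, 1291 and 1271 CPM in OIM and 551, 515 and 537 CPM in bFGF, a 2.36-fold fall from OIM (log2 fold change -1.24, SE 0.035, adjusted p = 1e-16). LDHB stood at 151, 149 and 153 CPM in control, 155, 172 and 155 CPM in OIM and 305, 304 and 311 CPM in bFGF, a 1.90-fold rise (log2 fold change 0.93, SE 0.040, adjusted p = 6.79e-14). The subunits thus moved in opposite directions, with no overlap between bFGF and OIM for either. By RPKM, LDHA was 4.83 to 4.97 times LDHB in control, 3.79 to 4.14 times in OIM and 0.858 to 0.913 times in bFGF. The lengths used were 2800 and 1417 bases, and without length scaling LDHA stayed above LDHB in bFGF (means of 534.4 and 306.7 CPM). The symbol LDHB is annotated at 2 loci in Sscrofa11.1, the spliced gene on chromosome 5 (51810932 to 51831218, used for its length) and an intronless near-identical copy on chromosome 2 (12988754 to 12990033), and the table does not say which gave the reads.

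**Figure D2:**
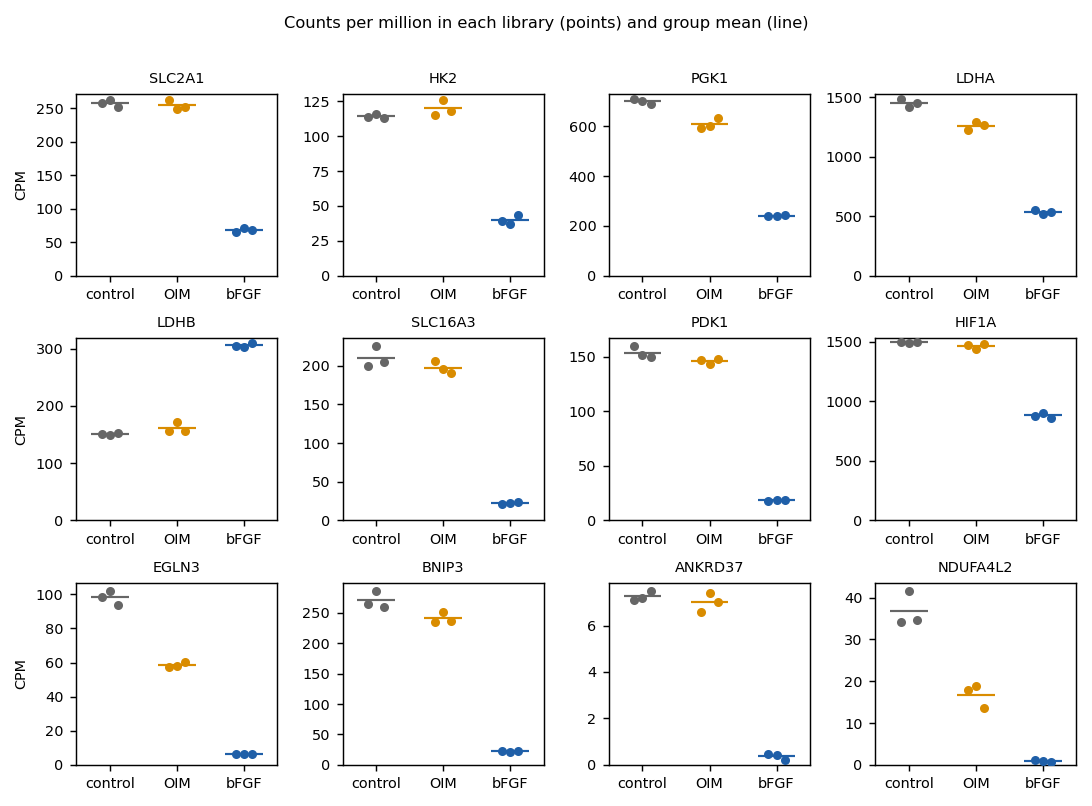
CPM (y axis, from 0) of 12 of the genes in each of the 9 libraries (points) with the group mean (line), for control, OIM and bFGF. All bFGF points lie below the OIM points except for LDHB, whose bFGF points at 304 to 311 CPM lie above, and EGLN3 and NDUFA4L2 were also called lower in OIM against control.

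Of the 4 kinases that set flux through the pathway, 3 fell, PDK1 by the most, and their median change was -1.20 on the log2 scale. PDK1, which switches off pyruvate dehydrogenase and so holds back the conversion of pyruvate to acetyl-CoA, stood at 160.0, 152 and 149.7 CPM in control, 147, 143 and 148 CPM in OIM and 17.9, 18.9 and 18.7 CPM in bFGF. The fall was 7.89-fold (log2 fold change -2.98, SE 0.045, adjusted p = 4.17e-20). PDK3, a second such kinase, fell 1.96-fold, and the RPKM ratio of PDK1 to PDK3 went from 4.72 to 4.8 in OIM to 1.1 to 1.26 in bFGF. PFKFB3, which makes the activator of phosphofructokinase, fell 2.68-fold from 106 to 109 CPM to 39.6 to 40.7 CPM. Its relative PFKFB4 was not called, at 12.5 to 13.9 CPM in OIM and 11.5 to 13.1 CPM in bFGF, and the groups overlapped.

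The 3 glycogen genes all fell. GBE1, the branching enzyme, stood at 280.5, 289 and 280.0 CPM in control, 256, 239 and 258 CPM in OIM and 69.5, 68.3 and 61.0 CPM in bFGF, a 3.79-fold fall (log2 fold change -1.92, SE 0.047, adjusted p = 1.47e-17). PPP1R3C, which targets a phosphatase to glycogen, fell 2.94-fold. GYS1, glycogen synthase of muscle and other tissues, fell 1.80-fold. All bFGF libraries lay below all OIM libraries for each of the 3 genes.

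The HIF alpha subunits themselves were lower in bFGF. HIF1A stood at 1495, 1488 and 1498 CPM in control, 1469, 1436 and 1483 CPM in OIM and 879, 900.3 and 860.4 CPM in bFGF, a 1.66-fold fall from OIM (log2 fold change -0.73, SE 0.031, adjusted p = 4.58e-14). EPAS1 (HIF-2 alpha) fell 2.01-fold, from 529.8 to 596 CPM in OIM to 267 to 302.5 CPM in bFGF. The RPKM ratio of HIF1A to EPAS1 was 2.46 to 2.71 in OIM and 2.97 to 3.21 in bFGF. VHL, which recognises hydroxylated HIF, was not called, with a log2 fold change of -0.21 (SE 0.074, adjusted p = 0.0177). RNA levels do not give the amount of HIF protein, which is set mainly by its degradation.

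The oxygen sensors EGLN1 and EGLN3 are HIF targets as well as HIF regulators. EGLN3 stood at 98.8, 102 and 94.0 CPM in control, 57.5, 58.1 and 60.1 CPM in OIM and 6.53, 6.57 and 6.21 CPM in bFGF. The groups were separate at each step, and the fall in bFGF against OIM was 9.09-fold (log2 fold change -3.19, SE 0.057, adjusted p = 2.31e-19). EGLN1 fell 2.60-fold, from 91.4 to 95.1 CPM to 34.5 to 37.6 CPM. By RPKM, EGLN1 was 1.07 to 1.2 times EGLN3 in control, 1.81 to 1.83 times in OIM and 6.08 to 6.96 times in bFGF.

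**Figure D3:**
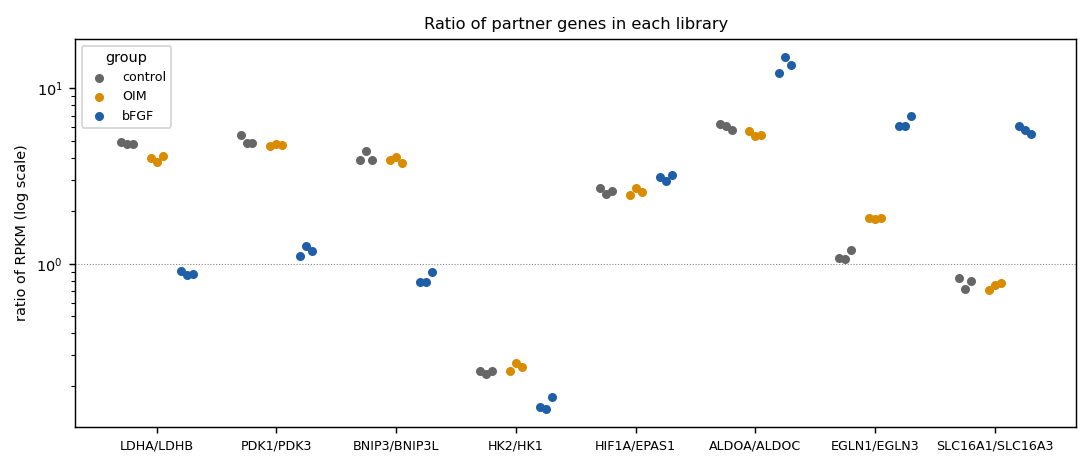
Ratio of the length-scaled levels (RPKM, log axis) of 8 pairs of related genes in each library, with control in grey, OIM in orange and bFGF in blue and a dotted line at equal levels. The bFGF points lie apart from the OIM points in each pair, and LDHA to LDHB, BNIP3 to BNIP3L and SLC16A1 to SLC16A3 cross the line of equal levels on this length-scaled measure, which the first 2 do not do between OIM and bFGF in CPM.

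Among the 13 other HIF targets, 11 fell in bFGF against OIM, and their median change was -1.42 on the log2 scale. ANKRD37, an ankyrin repeat protein, stood at 7.10, 7.18 and 7.48 CPM in control, 6.61, 7.41 and 7.02 CPM in OIM and 0.466, 0.442 and 0.192 CPM in bFGF, an 18.97-fold fall (log2 fold change -4.25, SE 0.201, adjusted p = 2.54e-13). It overlaps UFSP2 on the other strand, which had a log2 fold change of -0.49 and was not called. NDUFA4L2, a mitochondrial protein that lowers respiration under hypoxia, stood at 34.2, 41.6 and 34.6 CPM in control, 18.0, 18.8 and 13.6 CPM in OIM and 1.06, 0.9995 and 0.596 CPM in bFGF. The fall from OIM was 18.9-fold (log2 fold change -4.24, SE 0.167, adjusted p = 1.53e-14). These were the largest falls of the 46 genes in this comparison, and both genes were near 1 CPM or below in bFGF.

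BNIP3 and BNIP3L are mitochondrial receptors for mitophagy. BNIP3 stood at 265, 287 and 260.0 CPM in control, 235, 252 and 237 CPM in OIM and 22.4, 21.8 and 23.2 CPM in bFGF, a 10.8-fold fall (log2 fold change -3.43, SE 0.049, adjusted p = 2.74e-20). BNIP3L fell 2.28-fold, from 249.7 to 262 CPM to 106 to 117.5 CPM. By RPKM, BNIP3 was 3.73 to 4.07 times BNIP3L in OIM and 0.784 to 0.902 times in bFGF. This order rests on merged exon lengths of 1466 and 6035 bases, and without length scaling BNIP3 was below BNIP3L in OIM too (means of 241.3 and 255.3 CPM).

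ADM and CA12 fell as well. ADM, the vasodilator peptide adrenomedullin, stood at 33.9, 36.2 and 33.0 CPM in control, 24.2, 28.5 and 28.5 CPM in OIM and 4.08, 3.75 and 3.54 CPM in bFGF, a 7.13-fold fall from OIM. CA12, a cell-surface carbonic anhydrase, stood at 43.6, 45.95 and 40.3 CPM in control, 26.1, 26.2 and 22.5 CPM in OIM and 6.45, 6.46 and 5.66 CPM in bFGF, a 4.02-fold fall. APH1B overlaps CA12 on the other strand, at 32.5 CPM in OIM and 36.6 CPM in bFGF, and was not called. Both genes had separate groups at each step. CA9, the carbonic anhydrase best known as a hypoxia marker, was low at 0.844 to 1.4 CPM in OIM and 0.578 to 0.75 CPM in bFGF and was not called (adjusted p = 0.0897). STC2, a secreted glycoprotein, fell 1.63-fold.

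STC1, the related stanniocalcin, was too low for a fold. Its counts were 14, 14 and 9 in control, 0, 13 and 1 in OIM and 1, 0 and 0 in bFGF. A single OIM library, replicate 2, held nearly all of the OIM counts. The ratio of summed counts per library size was 12.5 for OIM to bFGF, with an exact 95% interval of 1.9 to 529 that covers counting error only.

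The remaining targets act within the cell. DDIT4, an inhibitor of mTOR complex signalling, fell 2.63-fold, from 272 to 295 CPM in OIM to 105.5 to 110.1 CPM in bFGF. KDM3A, a histone demethylase, fell 2.20-fold, and MXI1, an antagonist of MYC, fell 2.34-fold. HILPDA, which blocks lipid breakdown in droplets, fell 2.68-fold. FAM71F2 overlaps HILPDA on the same strand and had a log2 fold change of -1.53, so reads of the shared stretch cannot be told apart. FAM71F2 was at 2.18 CPM in OIM and 0.752 in bFGF, against 25.35 and 9.46 CPM for HILPDA.

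In the 46 genes, the motif of the promoter window and the size of the change were set side by side. In bFGF against OIM, 24 of the 29 genes with a match fell and their median was -1.41 on the log2 scale, and 12 of the 17 without fell, with a median of -1.01. Over the 7680 tested genes with a match and the 5960 without, among those with a promoter window, the medians were -0.006 with a match and 0.005 without, and 17.7% and 19.3% were called lower.

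OIM against control, the comparison that asks what the calcifying medium did, gave much smaller differences. Of the 46 genes 4 fell, ENO2, EGLN3, NDUFA4L2 and CA12, and 0 rose, where 0.864% of all genes tested were called lower and 1.49% higher. DESeq2 also called 0 of the 46 higher, and at an unadjusted p under 0.05 in edgeR with no fold limit 2 were higher, LDHB (1.07-fold) and STC2 (1.2-fold). NDUFA4L2 fell 2.19-fold (log2 fold change -1.13, SE 0.113, adjusted p = 9.47e-07), EGLN3 fell 1.68-fold (log2 fold change -0.75, SE 0.046, adjusted p = 1.96e-09), ENO2 fell 1.74-fold (log2 fold change -0.80) and CA12 fell 1.74-fold (log2 fold change -0.80). The libraries of these 4 genes did not overlap between control and OIM. The higher smooth muscle markers of OIM stand beside these calls, and their part in them was not tested. Their levels in bFGF were lower again, but this second step shares the OIM libraries with the first, so the 2 differences are not independent.

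The other genes shifted by less than the fold limit, apart from the low STC1 (log2 fold change -1.44, SE 0.851, adjusted p = 0.302). The median of the 46 genes was -0.15 against -0.002 over all genes, and 29 had groups that did not overlap (27 lower, 2 higher) where 28.8% of all genes did so. By adjusted p without a fold limit, for which no share over all genes was taken, 22 were lower and 1, STC2, was higher. Among these, DDIT4 came closest to the limit with a log2 fold change of -0.44 (SE 0.037, adjusted p = 9.6e-08), followed by MXI1 at -0.43, ADM at -0.35, HILPDA at -0.30 and SLC2A3 at -0.26. LDHA stood at -0.20, PGK1 at -0.20 and GAPDH at -0.20. SLC2A1, HK2, PDK1, PFKFB3, HIF1A and EPAS1 lay between -0.07 and 0.07 on the log2 scale and were not called.

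bFGF against control sets the full treatment against plain medium and shares its libraries with both comparisons above. It gave 37 genes lower and 1 higher of 46, where 20% of all genes tested were called lower and 18.9% higher, and 43 genes had groups that did not overlap where 73.7% of all genes did so. The median was -1.44 against -0.016 over all genes. CA9 and STC1 were called here and not against OIM, while STC2, which stood 1.2-fold higher in OIM than in control, was not called here with a log2 fold change of -0.45. NDUFA4L2 fell 41.4-fold and EGLN3 15.3-fold in this comparison. For STC1 the counts were 37 in control and 1 in bFGF, a ratio of 33.4 with an exact interval of 5.63 to 1350, and for CA9 the call was lost without control replicate 1 (log2 fold change -0.80 in place of -1.11).

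Other genes of the same pathways were counted from lists in the same fit. Of 30 further HIF targets, 21 fell and 1 (CITED2) rose in bFGF against OIM, with a median of -1.07, beside 18.4% lower, 17.7% higher and a median of -0.003 over all genes tested. P4HA1 and P4HA2, the catalytic subunits of collagen prolyl hydroxylase, fell 4.75-fold (605 ± 12.8 to 127 ± 4.1 CPM, SD, n = 3) and 4.09-fold (391 ± 6.25 to 95.8 ± 3.82 CPM). VLDLR, a lipoprotein receptor, fell 3.91-fold (342 ± 32.9 to 87.5 ± 2.38 CPM). VEGFA, the angiogenic factor most often used as a HIF readout and named here after its values were seen, was not called, at 569 ± 57.9 CPM in OIM and 495 ± 16.4 CPM in bFGF (log2 fold change -0.20, SE 0.052). In OIM against control, where 0.864% of all genes were called lower, 2 of the 30 fell, ANGPTL4 1.5-fold and IGFBP3 2.68-fold, the latter from 3.95 ± 0.961 to 1.48 ± 0.244 CPM.

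**Figure D4:**
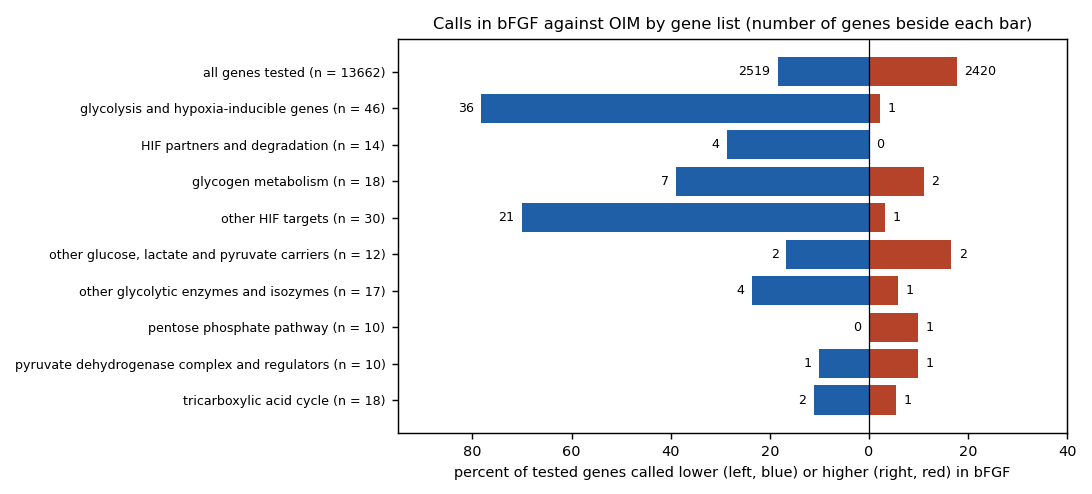
Percent of tested genes called lower (blue, to the left) or higher (red, to the right) in bFGF against OIM, for all 13662 genes tested, the 46 genes and 8 lists of related genes, with the number called beside each bar. The 46 genes (36 lower) and the further HIF targets (21 of 30 lower) have the longest blue bars, and the pentose phosphate list has 0 genes lower.

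The lists for neighbouring steps held calls in both directions, to be read against 18.4% lower and 17.7% higher over all genes tested. Among 17 further glycolytic genes, 4 fell and ADPGK rose, with a median of -0.09, which is near that background. ENO3, the muscle enolase, fell 3.02-fold from 29.4 ± 2.33 to 9.71 ± 1.88 CPM, after a 1.44-fold rise in OIM against control, and PGAM2, the muscle mutase, fell 2.53-fold. GPD2, which passes glycolytic electrons to the mitochondria, fell 1.97-fold. Of 12 further carriers, 2 rose and 2 fell. EMB, embigin, a chaperone of monocarboxylate carriers, rose 25.7-fold from 0.876 ± 0.278 to 22.8 ± 0.666 CPM, SLC2A8 rose 1.6-fold, and SLC16A7, itself such a carrier, fell 1.84-fold. In OIM against control the only carrier called was SLC2A6, 1.47-fold higher.

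Glycogen metabolism, beyond the 3 genes above, had 7 lower and 2 higher of 18, with a median of -0.31. PPP1R3B fell 2.35-fold, EPM2A, the laforin phosphatase, 2.20-fold and PPP1R3D 2.02-fold. Of 14 HIF partners and degradation factors, 4 fell, namely OS9 by 1.67-fold, the ubiquitin ligases SIAH1 by 1.55-fold and SIAH2 by 1.44-fold, and HIF3A, which was under 1 CPM in all groups. ARNT, the stable partner of HIF alpha, was not called, with a log2 fold change of -0.34 (SE 0.039).

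The pyruvate dehydrogenase, tricarboxylic acid cycle and pentose phosphate lists held few calls. Of 10 genes of the pyruvate dehydrogenase complex and its regulators, PDK2 fell 1.54-fold and PDP2, a phosphatase that switches the complex on, rose 1.49-fold. Of 18 tricarboxylic acid cycle genes, IDH2 fell 1.48-fold and PC, pyruvate carboxylase, 1.85-fold, while MDH2 rose 1.42-fold, and the median was 0.13. Of 10 pentose phosphate genes, RPIA, which makes ribose phosphate, rose 2.66-fold from 26.2 ± 1.0 to 69.7 ± 4.5 CPM, and the median was 0.23.

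Circular RNAs from the loci of the 46 genes were few. In all, 12 circRNAs lay within 8 of the loci, with 50 summed counts in control, 50 in OIM and 19 in bFGF. The HIF1A locus on chromosome 1 gave 5 of them, with 8, 9 and 13 counts in control, 12, 10 and 14 in OIM and 6, 0 and 6 in bFGF. The bFGF libraries lay below the others there, and all circRNAs together were also fewer in bFGF, at 129.3 to 133.4 on a counts-per-million scale with the gene counts as the total, against 139.6 to 147 in OIM. At these counts no test was made.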

How the data were processed

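Messenger RNA of PVICs was measured in 9 libraries grouped by their labels. According to the methods, the authors selected poly-A RNA, trimmed reads with Cutadapt and aligned them with STAR to susScr11 (Sscrofa11.1). The labels instead name a kit that removes ribosomal RNA, and the submitters' processing notes name Trimmomatic, HISAT2 and StringTie. The counting program and its strand setting are not given in the sources used here. The authors deposited 1 table of estimated counts that were not normalized, and its 19535 gene rows hold whole-number counts, so rounding changed none of them.

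The quasi-likelihood test of edgeR 4.0.16 (R 4.3.3) was applied to the gene counts after filterByExpr and TMM, with all 3 groups in 1 fit and 6 residual degrees of freedom. The Benjamini-Hochberg adjustment ran over all 13662 genes that passed the filter. SE is the log2 fold change divided by the square root of F. CPM use TMM-scaled library sizes, and RPKM divide these by merged exon length from RefSeq, which includes long isoforms. The common biological coefficient of variation was 0.0602. The test was also run on simulated counts with a common spread for all genes and far fewer changed genes than these data. That run does not vouch for the calls made here.

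The 46 genes, the lists and the naming rule were chosen with earlier results of these data known. Every one of the 46 is named. From each list up to 3 genes called in bFGF against OIM and up to 2 in OIM against control are named by size, with a mean of at least 1 CPM. ADPGK, CITED2, HIF3A, ARNT and VEGFA lie outside this rule and were named after their values were seen. Copies were sought at 90% identity over 50% of the mRNA.

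Same-numbered libraries did not deviate together (correlations of -0.032 to 0.0035), so the numbers were not taken as pairs. Alternatives were DESeq2 1.42.0, other size factors and filters, other fold limits, unadjusted p, a replicate block, fits without the third group and leaving out each library in turn. Thinning to equal depth was added after the data were seen. Sequences of the isozyme proteins, staining and qPCR were not analysed here. Figures were drawn with matplotlib 3.10.9.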

Additional observations from a re-analysis of the deposited data

Results flagged for a closer look

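Circular RNA counts stood outside the main measurement at 2 loci where control had none. The ENO1 locus had 4 circRNA counts in OIM, all in replicate 1, against 0 in the 3 control libraries and 0 in bFGF. The HK1 locus had 5 circRNA counts in bFGF, all in replicate 2, and 2 in OIM replicate 3, against 0 in control. Each count came from 1 library of its group, and no test was made.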

How the results depend on the processing

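The counts of called genes rested mainly on the fold limit. In bFGF against OIM, 2 genes were higher with no fold limit and 0 with a limit of 1, in place of 1, and the lower calls were 40 and 29 in place of 36. In OIM against control, 1 was higher and 22 were lower with no fold limit, and 1 was lower with a limit of 1. At these other limits no share over all genes was taken. The replicate block left 36 lower and 1 higher in bFGF against OIM, 4 lower in OIM against control and 37 lower and 1 higher in bFGF against control, and changed no call count. Leaving out 1 library gave 36 to 37 lower in bFGF against OIM, 4 to 5 lower in OIM against control and 36 to 38 lower in bFGF against control, with 1, 0 and 1 higher in each such fit. DESeq2, median-of-ratios size factors and the filters on low counts gave the same counts within 1 gene. With library totals alone, the median of all genes moved up by 0.22 on the log2 scale in bFGF against OIM, 68.8% of all calls were higher in place of 49%, and 34 of the 46 genes were lower, PGAM1 (-0.45) and STC2 (-0.49) having lost their calls.

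Genes not called changed sign in some fits. With library totals alone, the log2 fold change in bFGF against OIM was 0.017 for SLC16A1, 0.074 for PFKFB4 and 0.013 for VHL, and in bFGF against control 0.207 for PFKM, 0.212 for PFKFB4 and 0.036 for VHL. With only the 2 groups compared, PFKFB4 stood at 0.002 in bFGF against control, and with thinned libraries VHL stood at -0.001 in OIM against control. Over all fits, those without 1 library included, values in OIM against control ran from -0.012 to 0.057 for PFKL and -0.040 to 0.005 for PFKFB3. They ran from -0.006 to 0.038 for PDK3, -0.047 to 0.038 for EPAS1 and -0.024 to 0.048 for VHL. In bFGF against control, apart from library totals alone, they ran from -0.078 to 0.032 for PFKM and -0.078 to 0.023 for PFKFB4. STC1 passed the test in bFGF against OIM without OIM replicate 1 (-3.74) or 3 (-3.65) and in OIM against control without OIM replicate 2 (-4.25), and GAPDH passed the fold limit in bFGF against control without control replicate 3 (-0.50). The cause was not tested. STC1 and CA9 had few counts, and RPKM ratios rest on merged exon lengths.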
